A study of Drosophila melanogaster with 216 samples.

Results

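Respiratory complex I is the NADH dehydrogenase of the inner mitochondrial membrane, and its nuclear subunit genes in Drosophila melanogaster carry symbols that begin with ND-. The members described here are all probe sets that the platform annotation pairs with 1 gene of such a current symbol. They are 35 of the 18769 probe sets tested, and they stand for 32 genes. Of these, 30 probe sets (27 genes) are the general subunits, and 5 probe sets (5 genes) are copies whose symbol adds an L to that of another subunit. ND-20L copies ND-20, ND-24L copies ND-24, ND-51L1 and ND-51L2 copy ND-51, and ND-B14.5AL copies ND-B14.5A. A further 8 ND- genes, ND-23, ND-24, ND-30, ND-49, ND-49L, ND-AGGG, ND-B15 and ND-MWFE, had no probe set paired with them alone and were not analysed here, and neither were the subunits encoded by mitochondrial DNA.

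The RNA came from whole virgin flies of both sexes, pooled by 5 per Affymetrix array. Larvae were raised on 0.25SY, 1SY or 2.5SY food and moved as adults to 0.25SY, 1SY or 2.5SY, where the labels give a litre of 1SY as 70 g yeast with 100 g sugar (the study's results name these amounts the other way round) and the other foods as 0.25 and 2.5 times as concentrated. Flies were taken at 1 day of adult life, at middle age (10% of the cohort dead) or at old age (90% dead), so that each sex, age and pair of diets gave 1 group of 4 arrays, and 54 groups gave 216 arrays. The later ages are set by mortality, and the labels give no days for them. The study reports that virgin lifespan in both sexes varied most with adult diet and less with larval diet. Flies of 1 age label on different foods, or of different sex, may so differ in days of age. At the later ages diet or sex and days of age cannot be told apart. The arrays of a group were pools from 1 cohort, so the p-values measure the spread between pools, which leaves out the spread between cohorts. All flies came from 1 laboratory stock population.

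Complex I takes electrons from NADH, passes them over a flavin and a chain of iron-sulphur clusters to ubiquinone, and pumps protons. Core subunits carry these reactions and accessory subunits surround them in a matrix arm and a membrane arm. The arms and positions of the subunits named below are known mainly from the mammalian enzyme. In flies the flight muscle is rich in mitochondria, and many mitochondrial proteins have a second gene that is used in the testis. In whole flies, fewer cells of a type and less RNA per cell cannot be told apart.

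Values are log2 RMA values, and differences are on that scale, as the mean ± 1 SE of limma's fit. A probe set was called changed where its Benjamini-Hochberg adjusted p over all 18769 probe sets was under 0.05. Of the 216 arrays, 213 correlated with the median of their own group at 0.988 or above, and 3 arrays of old males stood apart at 0.837 to 0.975. Replicate 1 of larval 0.25SY and adult 2.5SY was closest to a group of old females (r = 0.997, testis list mean 5.45, eggshell list mean 12.4), replicate 3 of larval 0.25SY and adult 1SY was closest to a group of 1-day-old males (r = 0.997), and replicate 1 of larval 1SY and adult 0.25SY had a testis list mean of 9.12 and an eggshell list mean of 8.98. These arrays stay in the values unless their absence is stated.

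The general subunits were highest on day 1 in both sexes and fell at each later age. The mean over the 30 general probe sets ranged in females from 12.02 to 12.65 on day 1 (median 12.35), from 11.41 to 12.01 at middle age (median 11.55) and from 11.07 to 11.50 at old age (median 11.33). In males it ranged from 12.64 to 12.81 on day 1 (median 12.69), from 11.82 to 12.17 at middle age (median 11.97) and from 11.34 to 12.59 at old age (median 11.66). No array of middle age reached the lowest array of day 1 in either sex, whereas middle age and old age overlapped in both sexes. Both the lowest and the highest of the old males were arrays that stood apart.

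**Figure D1:**
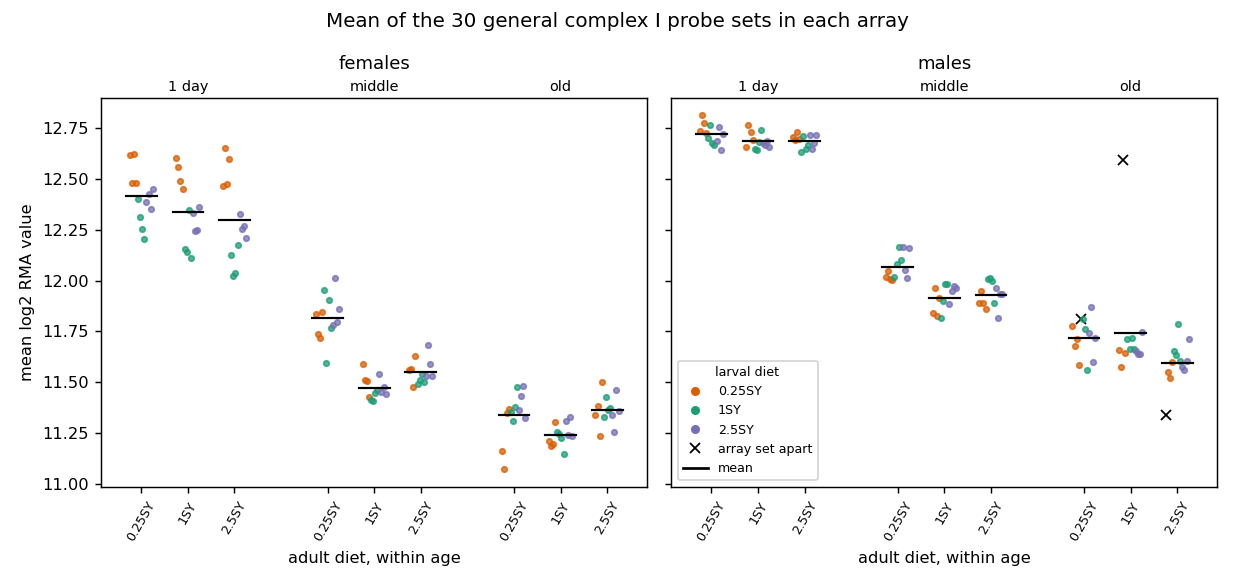
Mean log2 RMA value of the 30 general complex I probe sets in each of the 216 arrays (points, coloured by larval diet), by sex, age and adult diet, with the mean of each set of 12 arrays as a bar and the 3 old male arrays that stood apart as crosses. Day 1 lies above the later ages in both sexes, and middle-aged females on adult 0.25SY (11.59 to 12.01) lie above those on 1SY (11.41 to 11.59).

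From day 1 to middle age, all 30 general probe sets fell in both sexes. With the copies, 32 of 35 members fell in females, where 35.3% of all probe sets were called lower, and 35 of 35 in males, where 34.8% were. The median difference of the general subunits was -0.68 in females and -0.81 in males, against -0.03 and -0.00 over all probe sets. Every array of day 1 lay above every array of middle age for 14 general probe sets in females and 27 in males, a pattern that 0.948% and 5.72% of all probe sets showed. Next to ND-B8, described below, ND-42, a membrane arm subunit, fell most in females (-0.92 ± 0.02, adjusted p = 9.03e-52), from 12.82 to 13.37 on day 1 (median 13.11) to 11.93 to 12.52 at middle age (median 12.15). ND-19, a subunit of the membrane arm that faces the intermembrane space, fell most after ND-B8 in males (-1.12 ± 0.03, adjusted p = 4.87e-50), from 12.89 to 13.08 (median 12.96) to 11.68 to 12.23 (median 11.82). For neither gene did the ages overlap. ND-51, the flavin-binding core subunit at which NADH gives up its electrons, fell least of the general subunits, by -0.25 ± 0.03 in females and -0.08 ± 0.02 in males.

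From middle age to old age, 30 of 35 members fell in females (21.1% of all probe sets were called lower) and 31 of 35 in males (18.5%), and none rose in either sex. The median difference of the general subunits was -0.27 in females and -0.24 in males, against -0.00 and -0.02 over all probe sets. In females 29 of 30 general probe sets fell. The exception was ND-B12, a small membrane arm subunit, at -0.01 ± 0.04 in females. Its values over both sexes and all ages, 6.146 to 7.505, lay near the array medians of 6.64 to 7.42. Background cannot be told from a low level there, since no detection calls were used. In males all 30 general probe sets fell, and without the arrays that stood apart 32 of 35 members were called lower (23.4% of all probe sets), with a median of -0.26. Within adult 0.25SY, 1SY and 2.5SY, 30, 28 and 23 members fell in females (21.0%, 9.8% and 7.77% of all probe sets), with medians of -0.43, -0.22 and -0.17. In males 30, 12 and 29 members fell within these diets, with medians of -0.30, -0.15 and -0.29. With 1 replicate number left out, the count on 1SY in males ran from 2 (4.39% of all probe sets called in either direction) to 25 (11.6%). The male count on 0.25SY then ran from 23 (8.18%) to 30 (16.9%), and that on 2.5SY from 22 (21.6%) to 30 (30.2%). The female count on 2.5SY ran from 14 (10.2%) to 20 (10.6%). The male shares with all arrays are not given here. The 3 core subunits measured, which are ND-51, ND-75, which holds iron-sulphur clusters, and ND-20, which hands electrons to ubiquinone, fell in females by 0.46 to 0.51. The 8 accessory probe sets of the matrix arm had a median of -0.38 there, the 15 of the membrane arm one of -0.25, and the 3 of ND-ACP, an acyl carrier protein that also serves mitochondrial fatty acid synthesis, one of -0.17. In males the same sets had medians of -0.29, -0.30, -0.20 and -0.20. ND-MLRQ, which is counted among the general probe sets by its symbol, was placed in none of these sets.

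**Figure D2:**
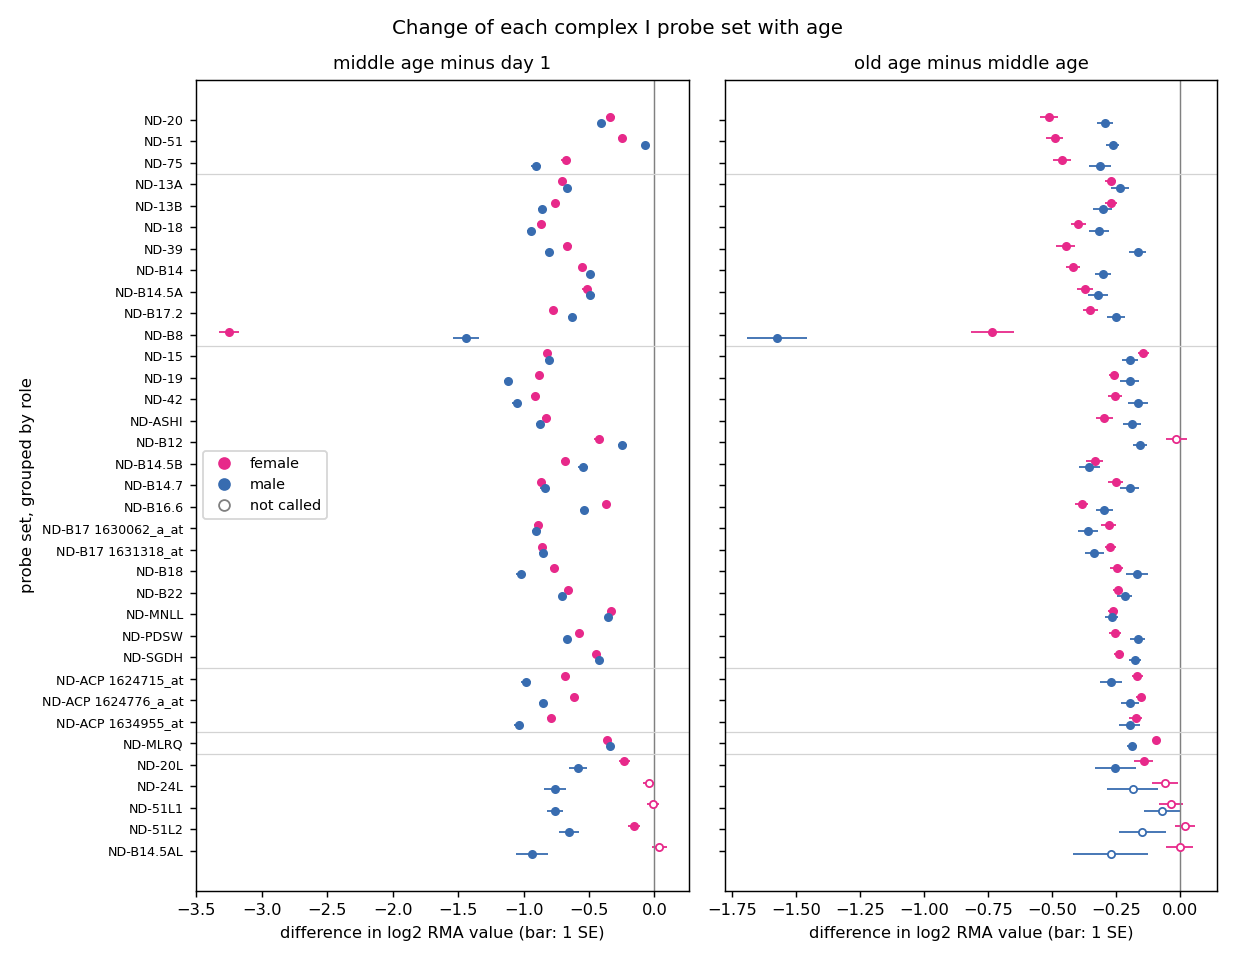
Difference in log2 RMA value of each of the 35 complex I probe sets from day 1 to middle age (left) and from middle to old age (right), with 1 SE, in females (pink) and males (blue), where open points were not called. Filled points lie left of 0 in both panels, ND-B8 lies farthest left, and the 5 copies at the bottom lie at -0.58 to -0.94 in males in the left panel.

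The fall between middle and old age differed between the sexes for 12 members (8 called higher in males, beside 17.8% of all probe sets, and 4 lower, beside 11.1%). ND-39, an accessory subunit of the matrix arm, fell by 0.45 ± 0.04 in females and by 0.16 ± 0.03 in males, a difference of 0.28 ± 0.05 (adjusted p = 8.44e-08). For ND-51 the difference between the sexes was 0.23 ± 0.04 (adjusted p = 3.52e-08), and for ND-20 it was 0.22 ± 0.04 (adjusted p = 6.35e-06), again with the larger fall in females. ND-B8 went the other way, as given below. The split of the 12 calls depends on the scaling: it was 3 higher (10.8% of all probe sets) and 12 lower (25.5%) with the arrays centred on their medians, and 14 higher (18.3%) and 5 lower (12.1%) with quantile normalization repeated. Leaving out replicate 1 or replicate 2 gave 6 calls, beside 22.6% and 23.8% of all probe sets called in either direction.

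ND-B8, an accessory subunit of the matrix arm, was the general subunit with the widest range. In females it read 9.29 to 10.73 on day 1 (median 9.95), 5.49 to 8.85 at middle age (median 6.30) and 5.52 to 6.36 at old age (median 5.85). In males it read 10.59 to 11.52 on day 1 (median 10.97), 8.75 to 10.37 at middle age (median 9.52) and 5.92 to 11.04 at old age (median 7.90). Day 1 did not overlap with middle age in either sex, and without the 3 arrays that stood apart every middle-aged male lay above every old male, which 0.0799% of all probe sets showed. The fall from day 1 to middle age was -3.25 ± 0.08 in females (adjusted p = 4.16e-56) and -1.44 ± 0.10 in males (adjusted p = 1.03e-23), and 31 and 200 of all 18769 probe sets fell further in the mean. From middle to old age it fell by 0.73 ± 0.08 in females (adjusted p = 1.43e-10) and changed by -1.57 ± 0.12 in males (adjusted p = 1.40e-16), with 177 and 9 probe sets that fell further. The male minus female difference of the changes was 1.81 ± 0.13 for the first interval (adjusted p = 4.19e-29) and -0.84 ± 0.13 for the second (adjusted p = 1.04e-08). The female median of 6.30 at middle age lay below the lowest median of any array, 6.64. No detection calls were used, so background cannot be told from a low level there, and the females may have had little room for a further fall over the second interval.

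**Figure D3:**
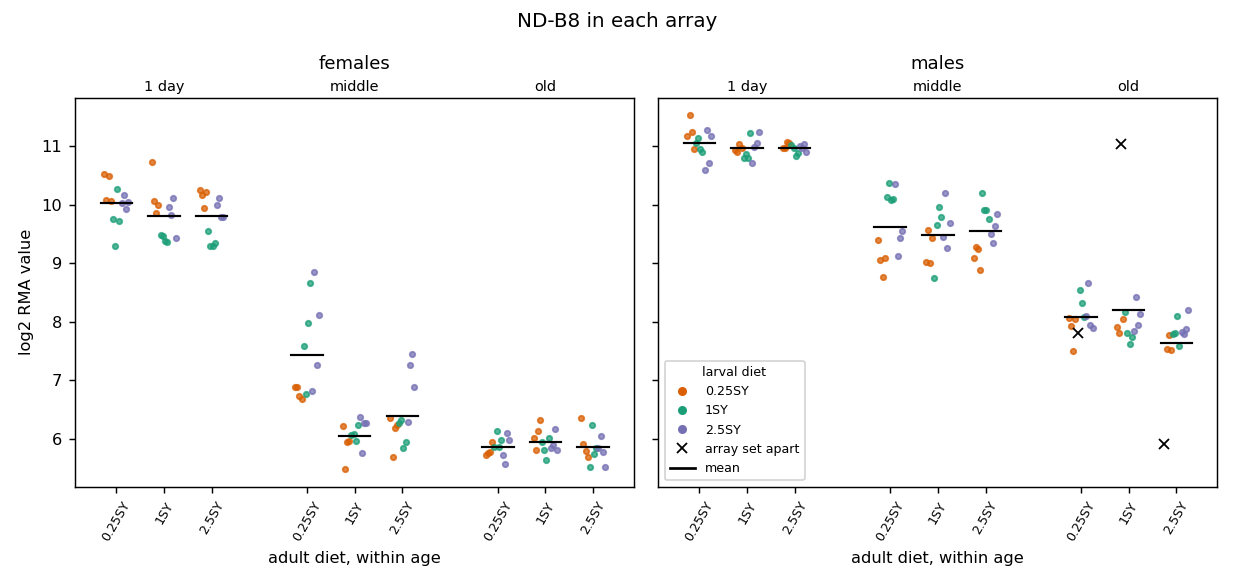
Log2 RMA value of ND-B8 in each of the 216 arrays (points, coloured by larval diet), by sex, age and adult diet, with the mean of each set of 12 arrays as a bar and the 3 old male arrays that stood apart as crosses. Females are near 6 at middle age, except those on adult 0.25SY (6.68 to 8.85) and some on 2.5SY, while males pass through 8.75 to 10.37 before old age.

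ND-B8 differed between the adult diets in middle-aged females. On adult 0.25SY it read 6.68 to 8.85 (median 7.08), on 1SY 5.49 to 6.37 (median 6.07) and on 2.5SY 5.69 to 7.45 (median 6.28), so that all 12 arrays of 0.25SY lay above all 12 of 1SY. The share of all probe sets with arrays apart in this way was not counted for this or any other diet comparison. The difference between 0.25SY and 1SY was 1.38 ± 0.15 at middle age (adjusted p = 1.29e-11), and at old age it was -0.08 ± 0.15 (adjusted p = 0.713). ND-B8 passed the test of adult diet by age in females (adjusted p = 2.01e-06). The fall from middle to old age in females was accordingly called on adult 0.25SY (-1.56 ± 0.15) and on 2.5SY (-0.54 ± 0.15), and on 1SY the difference was -0.10 ± 0.15 (adjusted p = 0.709). Within adult 0.25SY, the 4 arrays of larval 0.25SY read 6.89, 6.88, 6.73 and 6.68, those of larval 1SY 7.58, 6.77, 7.98 and 8.66, and those of larval 2.5SY 6.82, 8.85, 7.26 and 8.11. The arrays of larval 0.25SY lay closest together, and ND-B8 did not pass the test of larval by adult diet in females (adjusted p = 0.310). In middle-aged males, ND-B8 read 8.76 to 9.56 from larval 0.25SY (median 9.09) and 8.75 to 10.37 from larval 1SY (median 9.93), which overlap. That difference of -0.73 ± 0.20 was not called with all arrays (adjusted p = 0.362). Without the 3 old male arrays that stood apart the same difference had an SE of 0.12 and was called (adjusted p = 0.00109), beside 0.0852% of all probe sets that were then called lower.

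ND-B8 overlaps Gs1l on the genome, and the probe sequences were not used here. The 3 probe sets paired with Gs1l alone fell in females from day 1 to middle age (-0.26, -0.19 and -0.20) and rose from middle to old age (0.25, 0.25 and 0.18). In males they gave -0.02, 0.18 and -0.28 over the first interval, where the first was not called, and fell over the second (-0.22, -0.26 and -0.16). On adult 0.25SY in middle-aged females they gave -0.09, -0.27 and 0.20, where again the first was not called. ND-B8 moved with Gs1l in some of these comparisons and against it in others, and a part of Gs1l in its values was not tested. Another 19 of the 32 member genes overlap a gene in the Release 6 annotation, and a contribution of the neighbours to their values was not tested.

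All 5 copies had higher values in males than in females. Of the subunits they copy, ND-20, ND-51 and ND-B14.5A had a probe set of their own and ND-24 was not analysed here. ND-B14.5AL read 4.43 to 5.59 in females of day 1 (median 5.02), 4.53 to 5.56 at middle age (median 5.04) and 4.60 to 5.44 at old age (median 5.07). In males it read 10.62 to 11.08 on day 1 (median 10.86), 9.38 to 10.50 at middle age (median 9.94) and 4.94 to 11 at old age (median 9.82). Its lowest old male value is that of the array closest to old females. The male minus female difference of ND-B14.5AL was 5.85 ± 0.10, 4.88 ± 0.10 and 4.61 ± 0.10 at the 3 ages. For ND-24L, which copies an iron-sulphur core subunit, it was 4.03, 3.31 and 3.18 (each ± 0.07). For the copies of ND-51 it was 2.86, 2.37 and 2.20 (each ± 0.06) in ND-51L2 and 2.60, 1.85 and 1.82 (each ± 0.06) in ND-51L1, and for ND-20L it was 2.42, 2.07 and 1.96 (each ± 0.06). The female values of the copies other than ND-20L, 4.43 to 6.55 over the 3 ages, lay below that lowest array median of 6.64. Those of ND-20L, 6.26 to 7.29, lay on both sides of it. Where such a value is background, which was not tested, the difference is a lower bound. On day 1 and at middle age every male array lay above every female array for all 5 copies, beside 14.9% and 10.7% of all probe sets. At old age that held for ND-51L1 alone with all arrays and for all 5 copies without the 3 arrays that stood apart (12.6% of all probe sets). The testis list, 27 probe sets of genes known for spermatogenesis, moved with the copies. At middle age 26 of 27 were called higher in males (28.6% of all probe sets) and 1 lower (65.9%), with a median of 6.57. Its list means were then 9.68 to 10.38 in males and 5.33 to 5.89 in females.

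**Figure D4:**
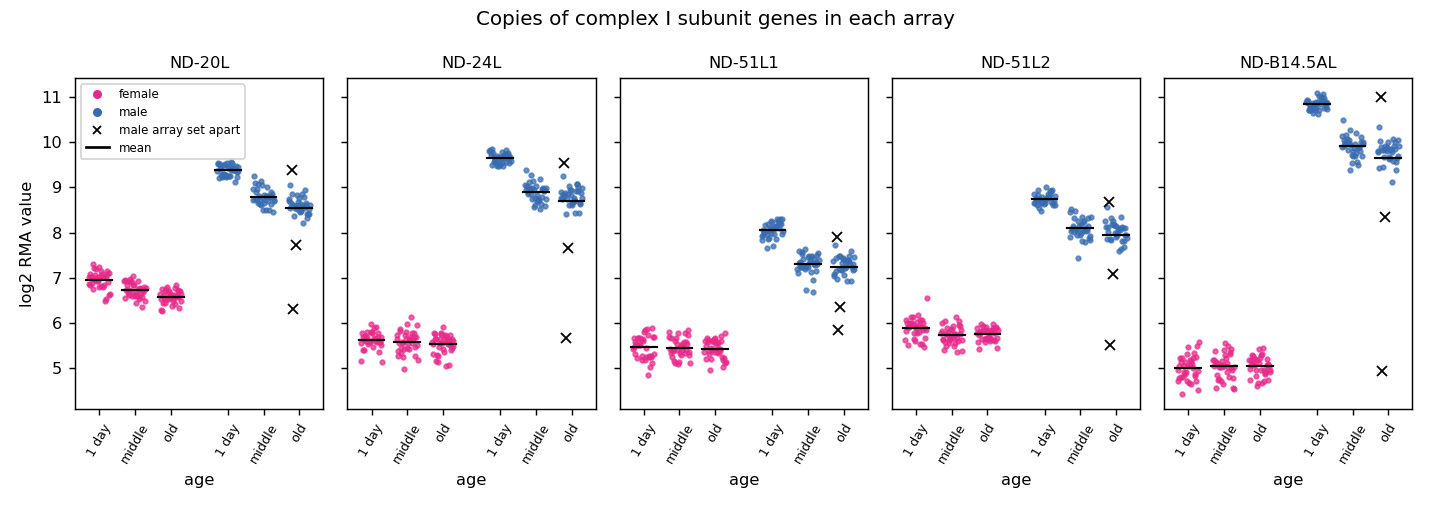
Log2 RMA value of the 5 copies of complex I genes in each array, by sex and age (females pink, males blue), with the mean of each set of 36 arrays as a bar and the 3 old male arrays that stood apart as crosses. Males lie above females in each panel, apart from the cross closest to old females, and male values drop between day 1 and middle age.

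All 5 copies fell in males between day 1 and middle age, by 0.58 ± 0.07 in ND-20L, 0.65 ± 0.08 in ND-51L2, 0.76 ± 0.08 in ND-24L, 0.76 ± 0.06 in ND-51L1 and 0.94 ± 0.12 in ND-B14.5AL. In females ND-20L (-0.23 ± 0.04) and ND-51L2 (-0.16 ± 0.05) were called lower, and the other copies were not called. The change from day 1 to middle age differed between the sexes for 21 members, 5 higher in males (30.1% of all probe sets) and 16 lower (24.8%), or 12 (31.4%) and 10 (25.0%) with quantile normalization repeated. The copies are 5 of the 16. ND-20L fell in both sexes and further in males, with a difference of -0.35 ± 0.08 (adjusted p = 3.16e-05). Its female values were 6.475 to 7.29 on day 1 and 6.35 to 7.05 at middle age. These lay near the array medians of 6.64 to 7.42, so the fall in females may have been limited there too. The differences of the other copies are not read here, since low female values may have left them little room to fall. Of the testis list, 24 of 27 fell over the same interval in males (34.8% of all probe sets) and 1 rose (median -0.54). Whether the copies moved with the amount of testis RNA was not tested. ND-51 itself fell by 0.08 ± 0.02 in males while its copies fell by 0.76 and 0.65, ND-20 fell by 0.41 ± 0.03 beside 0.58 in its copy, and ND-B14.5A by 0.49 ± 0.04 beside 0.94 in its copy. These are differences within each probe set, not levels compared between them. Between middle and old age, ND-20L fell in males (-0.25 ± 0.08, adjusted p = 0.00781). Without the 3 arrays that stood apart ND-B14.5AL was called too (-0.13 ± 0.05, adjusted p = 0.0472), and ND-24L, ND-51L1 and ND-51L2 were called in neither case.

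Between the sexes, most general subunits had higher values in males as deposited, and this turned when the arrays were centred. As deposited, 29 of 30 general probe sets had higher values in males on day 1, with a median difference of 0.35, and 26 of 30 at middle age (median 0.34) and at old age (median 0.36). With the copies, 34, 31 and 31 of 35 members were called higher in males, beside 30.2%, 28.6% and 30% of all probe sets, and 1, 2 and 3 were called lower, beside 64.4%, 65.9% and 64.4%. The median over all probe sets was itself -0.26 to -0.27. With quantile normalization repeated, 28, 27 and 30 members were called higher (30.2%, 28.6% and 30% of all probe sets) and 3, 4 and 4 lower (60.2%, 61.2% and 59.6%), with medians of the general subunits of 0.17, 0.25 and 0.34. With the arrays centred on their medians, which shifts every probe set of an array alike, 8, 7 and 9 members were called higher (20.4%, 17.9% and 17.5% of all probe sets) and 19, 22 and 20 lower (76.2%, 78.7% and 79.0%), and the median of the general subunits was -0.11, -0.14 and -0.19 against -0.73, -0.74 and -0.81 over all probe sets. ND-B8 and the 5 copies were higher in males at all 3 ages as deposited and under both other scalings.

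The larval diet was seen in the general subunits of 1-day-old females. Their mean over the 30 probe sets read 12.45 to 12.65 from larval 0.25SY (median 12.53), 12.02 to 12.40 from 1SY (median 12.17) and 12.21 to 12.45 from 2.5SY (median 12.33), so that the 0.25SY arrays lay above all arrays of 1SY. All 30 general probe sets and no copy were called higher from larval 0.25SY than from 1SY, beside 19.5% of all probe sets, with a median of 0.36 against -0.02. ND-B8 rose most (0.68 ± 0.09, adjusted p = 3.67e-07), followed by ND-75 (0.47 ± 0.06, adjusted p = 8.56e-08) and ND-13B, an accessory subunit of the matrix arm (0.44 ± 0.04, adjusted p = 7.43e-10). ND-75 read 11.07 to 11.38 from larval 0.25SY (median 11.27) and 10.44 to 11.24 from 1SY (median 10.75), and ND-13B 11.79 to 12.14 (median 11.88) and 11.34 to 11.65 (median 11.46). The 2 diets overlapped in ND-75 and did not in ND-13B. Larval 2.5SY against 1SY gave 19 members called higher and none lower (6.76% of all probe sets higher), with a median of 0.13. Both comparisons share the 1SY arrays. With the arrays centred on their medians, 28 members were higher (14.1% of all probe sets) and 1 lower (40.7%) from 0.25SY, and 7 were higher from 2.5SY (4.44%). Leaving out replicate 1, 2 or 4 also lowered the count from 2.5SY, to 6, 6 and 8 (2.21%, 3.09% and 7.78% of all probe sets higher).

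Males of day 1 showed little of this. From larval 0.25SY 1 member, ND-ASHI of the membrane arm, was called higher (0.10 ± 0.03, adjusted p = 0.0163), beside 3.44% of all probe sets, and the median of the general subunits was 0.04. The difference between the sexes was itself called for 29 members, all with the smaller rise in males (12.8% of all probe sets), and its median was -0.32. The female difference was smaller by middle age: the change of the 0.25SY against 1SY difference from day 1 to middle age was called for 28 members in females, all lower (10.9% of all probe sets), with a median of -0.31 and -1.06 ± 0.19 in ND-B8. Over the later ages, larval diet gave no called member in females by limma from 0.25SY (0.00533% of all probe sets higher and 0.0% lower) or from 2.5SY (0.00533% each way). Of the 30 general probe sets, 0 and 2 had an unadjusted p under 0.05 there. In males no member was called for either larval diet (from 0.25SY 0.0799% of all probe sets higher and 0.224% lower, from 2.5SY 0.0% each way), with 2 and 0 of 30 at an unadjusted p under 0.05. Without the 3 arrays that stood apart 4 members were called lower from larval 0.25SY in males (3.47% of all probe sets), ND-B8 among them (-0.46 ± 0.09, adjusted p = 0.00276).

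Differences of the general subunits between adult diets were seen mainly in females. At the later ages adult diet and days of age cannot be told apart. Over both later ages, 28 members, all general, were higher on 0.25SY than on 1SY and none was lower (25.0% of all probe sets higher), with a median of 0.24 against -0.00 over all probe sets. The 2 general probe sets that were not called were ND-B12, with values near the array medians, and 1 of the 3 of ND-ACP. At middle age the mean over the 30 probe sets read 11.59 to 12.01 on 0.25SY (median 11.82), 11.41 to 11.59 on 1SY (median 11.46) and 11.48 to 11.68 on 2.5SY (median 11.54). The lowest array of 0.25SY lay just above the highest of 1SY. ND-B8 apart, the largest rise at middle age was that of ND-B14.5A, an accessory subunit of the matrix arm, from 11.25 to 11.63 on 1SY (median 11.38) to 11.63 to 12.36 on 0.25SY (median 11.98), a difference of 0.58 ± 0.05 (adjusted p = 2.00e-13). ND-75 followed with 0.48 ± 0.06 (adjusted p = 9.64e-10), between 10.00 and 10.31 on 1SY (median 10.10) and between 10.11 and 10.92 on 0.25SY (median 10.59). The ranges on the 2 diets met at 11.63 in ND-B14.5A and overlapped in ND-75. The 3 core probe sets had a median of 0.43 at middle age, the matrix arm one of 0.39, the membrane arm one of 0.31 and ND-ACP one of 0.13.

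Within each larval diet, 0.25SY, 1SY and 2.5SY, 21, 25 and 26 members were called higher on adult 0.25SY at middle age (5.35%, 17.3% and 22% of all probe sets), and 0, 12 and 5 at old age (2.23%, 11% and 8.43%). The size of the diet difference depended on age in females, where 29 members passed the test of adult diet by age, beside 27% of all probe sets. That count was 19 with centred arrays (27.4% of all probe sets) and 9 without replicate 1 (8.72%). On 0.25SY 28 members were called higher at middle age (24% of all probe sets, median 0.35) and 16 at old age (17.4%, median 0.12), where the copy ND-B14.5AL was called lower (-0.23 ± 0.09, beside 23.7% of all probe sets). At old age the mean over the 30 probe sets read 11.07 to 11.48 on 0.25SY and 11.15 to 11.33 on 1SY, which overlap. On 2.5SY 1 member was called higher at middle age (2.29% of all probe sets, with 1.18% lower, median 0.07). It was ND-B17.2 of the matrix arm (0.16 ± 0.05). At old age 20 were called higher (15.4%, median 0.14), led by ND-B17.2 (0.27 ± 0.05, adjusted p = 2.67e-05). ND-B12, with values near the array medians, was called lower there (-0.18 ± 0.07, beside 16.8%). Over both ages 22 members were higher on 2.5SY (15.5% of all probe sets), with a median of 0.11. The adult comparisons share the 1SY arrays. With arrays centred on their medians, 0.25SY over both ages had 20 members called higher (17.3% of all probe sets) with 5 lower (51.9%), and 2.5SY had 11 higher (12.3%) with 3 lower (24.7%). Centred at old age, 0.25SY gave 2 higher (12.5%) with 5 lower (40.5%) and 2.5SY gave 11 (12% of all probe sets) with 1 (27.8%). Centring moved the median over all probe sets on 0.25SY from -0.00 to -0.11 over both ages, and at old age it left the median of the general subunits at 0.02. With quantile normalization repeated, 0.25SY at old age gave 14 higher (16.3%) with 3 lower (23.6%) and a median of 0.10. The counts at old age also moved with the replicates: on 0.25SY 4 members were called higher without replicate 3 (12.1% of all probe sets) and 6 without replicate 4 (14%), and on 2.5SY 12 without replicate 4 (11%).

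In males, 2 members were called higher on adult 0.25SY over the later ages (3.91% of all probe sets). They were ND-B14.5A (0.16 ± 0.05, adjusted p = 0.0290) and ND-MNLL of the membrane arm (0.10 ± 0.03, adjusted p = 0.0347), and the median of the general subunits was 0.07. At middle age 7 were called (3.65%), with a median of 0.15. The mean over the 30 probe sets then read 12 to 12.17 on 0.25SY (median 12.05) and 11.82 to 11.98 on 1SY (median 11.93), so the arrays of the 2 diets did not overlap. These counts moved with the old male arrays that stood apart. Without the 3 of them 21 members were called higher over both ages (8.23% of all probe sets, median 0.10) and 27 at middle age (8.57%). Without the array closest to 1-day-old males alone the counts were 21 and 25, and without replicate 1 of larval 1SY and adult 0.25SY alone they were 0 and 8. The shares of all probe sets without these single arrays are not given here. Over the replicate numbers left out in turn, both counts ranged from 0 to 17. Of all probe sets, 1.76% to 3.63% were then called higher over both ages and 1.53% to 2.24% at middle age. With arrays centred on their medians no member was called in males on 0.25SY, over both ages or at middle age. On 2.5SY at old age ND-B14 and ND-18 of the matrix arm were called lower (1.15% of all probe sets), and neither was without the 3 arrays. On 2.5SY no member was called by limma over both ages (1.42% of all probe sets higher and 0.948% lower), with 6 of 30 general probe sets at an unadjusted p under 0.05 and a median of -0.06. The rise on 0.25SY was smaller in males than in females for 23 members (21.9% of all probe sets), with ND-B8 at -0.64 ± 0.16, and that on 2.5SY for 23 members (11.6%). Without the 3 arrays these were 21 (22.1% of all probe sets), beside 1 member that went the other way (25.5%), and 21 (10.9%). Centred, they were 12 (15.8%), beside 3 the other way (30.8%), and 14 (8.24%). Without replicate 3 the first count was 15 in all.

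**Figure D5:**
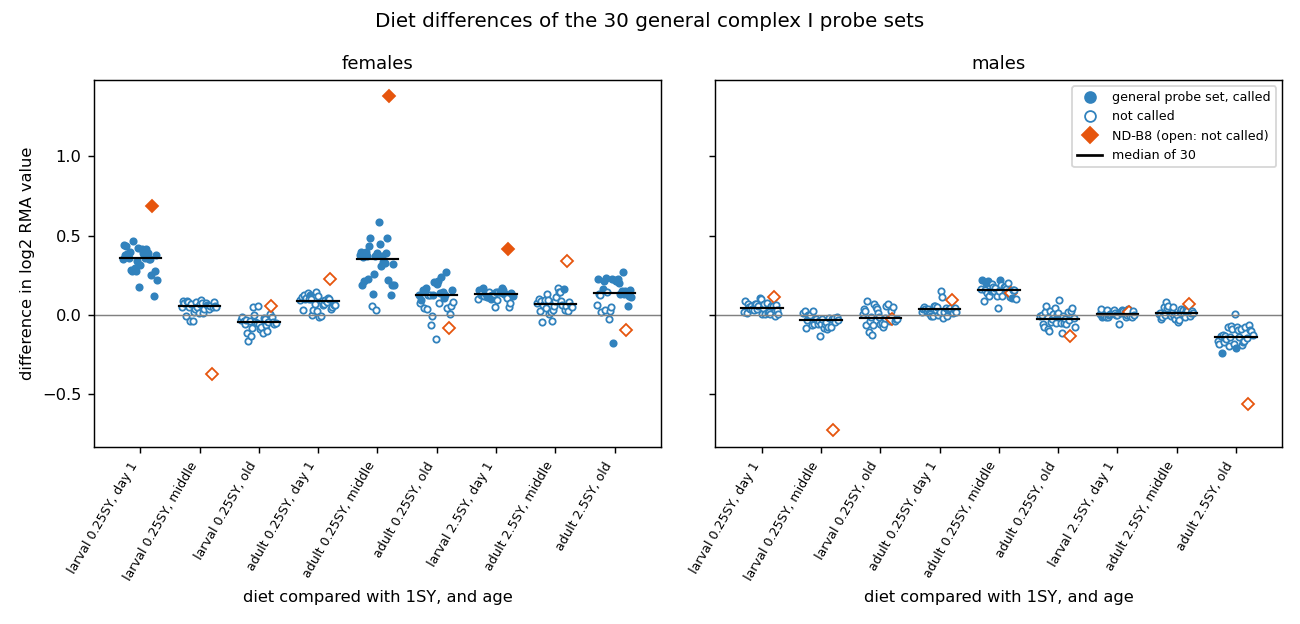
Difference in log2 RMA value of the 30 general complex I probe sets (points, filled where called, ND-B8 as a diamond) between 0.25SY or 2.5SY and 1SY, as larval or adult food and by age, in females (left) and males (right), with the median of the 30 as a bar. In females the medians are 0.36 for larval 0.25SY on day 1 and 0.35 for adult 0.25SY at middle age, and in males the highest median is 0.15.

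In 1-day-old flies adult diet had small effects. By its test, 5 members were called in females (6.33% of all probe sets) and 1 in males (2.14%). On 0.25SY against 1SY ND-51 alone was higher in females (0.12 ± 0.03, adjusted p = 0.0173), beside 4.97% of all probe sets. Its counts moved with the setting, as given in the closing section. Between middle and old age, no interaction of larval diet with adult diet or with age was called for any member in either sex, beside 3.6% and 0.0% of all probe sets in females and 0.0213% and 0.00533% in males. By limma's F-test 8 and 7 members in females and 1 and 1 in males had an unadjusted p under 0.05. Adult diet by age gave no called member in males (0.256% of all probe sets), with 9 at an unadjusted p under 0.05.

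Subunits of the other respiratory complexes moved with complex I. The list of complexes II to V, which carry electrons from ubiquinone to oxygen and make ATP, holds 31 general and 16 copied genes. From middle to old age 29 of 31 fell in each sex (medians -0.25 and -0.25), beside 21.1% and 18.5% of all probe sets. From day 1 to middle age 29 and 28 fell (35.3% and 34.8% of all probe sets) and 2 and 2 rose (medians -0.58 and -0.63). In 1-day-old females from larval 0.25SY 28 rose (19.5% of all probe sets) and none fell (median 0.17). On adult 0.25SY in females 23 rose (25.0% of all probe sets) and 1 fell (median 0.11). The 16 copies of these complexes were all higher in males at middle age (median 4.55), beside 28.6% of all probe sets. Assembly factors help to build complex I and are not parts of it. Names with no sure role were dropped from the list of them, with earlier results known, and of the 18 names left, some of them alternative names, 4 were found. These 4, CIA30, Nubpl, OXA1L and sicily, did not share one direction. In females on adult 0.25SY CIA30 was called higher (0.05 ± 0.02), OXA1L (-0.41 ± 0.05) and sicily (-0.13 ± 0.03) were called lower, and Nubpl was not called.

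Muscle and egg genes moved beside these results, and their part in them was not tested. The muscle list, 17 genes of the contractile apparatus, fell whole from day 1 to middle age in both sexes (medians -1.44 and -1.33), beside 35.3% and 34.8% of all probe sets. From middle to old age all 17 fell in females (median -0.56, beside 21.1% of all probe sets), with list means of 10.26 to 11.99 and 9.79 to 11.05. In males 6 fell (18.5% of all probe sets) and 5 rose (median -0.07). With 1 replicate number left out, 18.9% to 20.8% of all probe sets rose there. In 1-day-old females from larval 0.25SY all 17 rose (median 0.50, beside 19.5% of all probe sets), with list means of 12.99 to 13.27 against 12.53 to 12.87 from 1SY. On adult 0.25SY in females 15 rose (25.0% of all probe sets) and none fell (median 0.75), with list means at middle age of 11.08 to 11.99 against 10.26 to 11.31. The eggshell and yolk list, 17 genes, fell whole in the same comparison (median -2.23). Its list means at middle age were 7.17 to 12.74 on 0.25SY and 11.69 to 13.49 on 1SY. On day 1 it had 2 genes called higher (19.5% of all probe sets) and 7 lower from larval 0.25SY. With 1 replicate number left out, 48.4% to 52.0% of all probe sets were called in either direction on adult 0.25SY in females. The part called higher was 22.1% to 24.7%. From larval 0.25SY on day 1 these shares were 35.8% to 40.6% and 16.1% to 18.7%. The shares called lower with all arrays are not given here.

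The 3 probe sets of ND-ACP and the 2 of ND-B17, a membrane arm subunit, allow a check within a gene. The 2 of ND-B17 gave -0.28 and -0.27 with age in females and -0.36 and -0.33 in males, and 0.24 and 0.22 on adult 0.25SY in females. Those of ND-ACP gave -0.17, -0.15 and -0.17 with age in females and -0.27, -0.19 and -0.20 in males, but they disagreed on adult 0.25SY in females, with -0.01, 0.06 and 0.19, where the first was not called. Between the sexes 2 of them were called lower in males at middle and at old age as deposited, and the third was not called.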

How the data were processed

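RMA, run by the authors, made the deposited log2 values. It corrects background, gives arrays a common distribution and summarises the probes of a probe set. The methods describe this per sex after leaving out 2 female and 4 male arrays, which they do not name. Values for 216 arrays are in the table, and no source used here says if the sexes were normalized together. Of its 18952 rows, 183 controls were left out. No detection calls were used. Platform gene names (13647 probe sets with 1 symbol, 402 with several, 4720 with none) were updated through Entrez identifiers to Release 6 plus ISO1 MT for 13544. The members, gene lists and tests were chosen with earlier results of these data known. limma 3.58.1 in R 4.3.3 fitted group means to 72 arrays a sex (later ages), 36 (day 1), 108 (all ages) or 216 (sexes). Every member may be named. Full values go to ND-B8, to the copies with the subunits they copy, and to up to 3 members of largest called difference per comparison. Other settings tried were no moderation, a mean of at least 5, centred arrays, repeated quantile normalization, array weights, replicate or provider number as blocks (blocks of 24), 1 probe set per gene, and arrays left out. Replicate numbers do not pair arrays. The number of arrays limits the precision, and no read depth applies.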

Additional observations from a re-analysis of the deposited data

Results flagged for a closer look

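Within groups of 4 arrays, 1 array lay far from the other 3 in 6 of the 108 tests of ND-B8 and of the mean of the general subunits, and chance alone gives about 1 in 20. The gap ratios, which are the gap to the nearest array over the range of the group, were for ND-B8 0.842 in middle-aged females of larval 2.5SY and adult 1SY (5.76 against 6.27 to 6.37), 0.925 in old males of larval 0.25SY and adult 1SY (11.04 against 7.81 to 8.05) and 0.862 in old males of larval 0.25SY and adult 2.5SY (5.92 against 7.51 to 7.77). For the mean of the general subunits they were 0.898 in middle-aged males of larval 1SY and adult 2.5SY (11.89 against 12 to 12.01), 0.916 in the same old male array as above (12.59 against 11.57 to 11.66) and 0.859 in old males of larval 2.5SY and adult 1SY (11.75 against 11.64 to 11.65).

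The sexes or ages differed under the same contrast in several ways. The change from middle to old age differed between the sexes for 12 members, beside 17.8% of all probe sets called higher and 11.1% lower. ND-B8 was at -0.84, ND-39 at 0.28, ND-51 at 0.23 and ND-20 at 0.22 (male minus female). For the change from day 1 to middle age 21 members were called, beside 30.1% higher and 24.8% lower, with ND-B8 at 1.81. ND-B8 was low in females by middle age (median 6.30), which may have left little room for a further fall there. Adult diet by age was called for 29 members in females. The difference between the sexes was called for 29 members in the response to larval 0.25SY on day 1, for 23 in that to adult 0.25SY and for 23 in that to adult 2.5SY. The change of the larval 0.25SY difference from day 1 to middle age was called for 28 members in females.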

How the results depend on the processing

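The calls of the age and maturation comparisons over all diets, and of larval 0.25SY in females of day 1, stayed within 1.5 times of their counts under all settings. The age counts on adult 2.5SY in females and on adult 1SY in males, given above, did not over the replicate numbers left out. Neither did the following counts of members called over the settings. For most settings of this section the share of all probe sets called is not given. A changed count is therefore not read as a result about the members. With arrays centred on their medians, adult 2.5SY in females gave 14 (22 as reported), adult diet by age in females 19 (29), adult 0.25SY in males 0 (2), day 1 adult diet in females 0 (5) and day 1 larval diet in males 0 (1). Quantile normalization repeated gave 3 for day 1 adult diet in females and 19 for sex by age (12). Array quality weights gave 1 for larval by adult diet in females (0), 16 for day 1 adult diet in females, 23 for adult 0.25SY in males, 7 for larval 0.25SY in males (0), 1 for adult diet by age in males (0) and 19 for sex by age. The provider number block gave 0 for day 1 adult diet in females, 1 for adult 0.25SY in males, 0 for day 1 larval and 0 for day 1 adult diet in males (1 each), and 7 for sex by age. The replicate block gave 2 for day 1 adult diet in females and changed no other count by over 1.5 times. Samples of 1 number correlated at a mean of 0.00304 in females and -0.00502 in males.

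Without the 3 old male arrays that stood apart, adult 0.25SY in males gave 21 (8.23% of all probe sets higher) and larval 0.25SY in males 4 (3.47% lower). Adult diet by age in males then gave 1, and the 3 counts were 23, 5 and 1 once the 6 lowest-weight arrays were dropped. Arrays left out singly, chosen after seeing the data, gave 21 (larval 0.25SY, adult 1SY, replicate 3) and 0 (larval 1SY, adult 0.25SY, replicate 1) for adult 0.25SY in males, and 2 (larval 0.25SY, adult 2.5SY, replicate 1) and 1 (larval 0.25SY, adult 1SY, replicate 3) for larval 0.25SY in males. Leaving out each replicate number, or a single array, gave 11 to 22 for adult 2.5SY in females, 9 to 28 for adult diet by age in females (9 without replicate 1), 0 to 3 and 0 to 0 for day 1 adult diet in females and males, 0 to 0 for day 1 larval diet in males, 0 to 21 for adult 0.25SY in males (0 to 17 over the replicate numbers) and 6 to 14 for sex by age. No called difference of ND-B8 or of a copy that was followed over the settings changed direction. The causes were not tested.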
